A study of Homo sapiens with 4 samples.

Results

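The let-7 family consists of 8 mature human miRNAs on the array used here, hsa-let-7a-5p, hsa-let-7b-5p, hsa-let-7c-5p, hsa-let-7d-5p, hsa-let-7e-5p, hsa-let-7f-5p, hsa-let-7g-5p and hsa-let-7i-5p, named let-7a to let-7i in what follows. They were taken by name and not by any measured value, and are 8 of the 939 miRNAs on the array, 851 of which are human. Total RNA of HCT116 cells, a p53 wild type human colon cancer line, was hybridised with 1 colour (Cy3) to 4 human miRNA arrays. Of these, 2 held RNA of MG cells, the labelled high migratory cells that had passed a transwell membrane, and 2 held RNA of non-MG cells, the labelled low migratory control that stayed on its upper side. Both groups came from the same line by repeated selection on the membrane and were then cultured, with no other treatment named. The labels number the arrays of a group but do not say that they came from separate cultures, so the p-values below measure the spread between these arrays, which may be technical.

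let-7 miRNAs are among the most conserved animal miRNAs. They guide Argonaute proteins to messenger RNAs through the seed near their 5′ end, and in epithelial tumours they are known for restraining RAS and HMGA2 and for a mutual repression with LIN28, which blocks let-7 maturation. Members share the seed and differ in the rest of the molecule and in the locus that encodes them.

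The mature sequences are shown because members that differ by few bases were measured on separate probes. They are given 5′ to 3′ from RefSeq (GRCh38.p14) with the seed, bases 2 to 8, in capitals.
let-7a: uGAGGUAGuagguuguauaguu
let-7b: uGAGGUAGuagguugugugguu
let-7c: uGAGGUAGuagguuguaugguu
let-7d: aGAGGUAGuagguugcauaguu
let-7e: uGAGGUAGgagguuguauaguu
let-7f: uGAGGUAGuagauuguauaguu
let-7g: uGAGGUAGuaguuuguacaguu
let-7i: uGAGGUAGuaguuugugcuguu
miR-98: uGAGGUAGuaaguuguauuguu
All 8 members were 22 bases long and shared 1 seed, GAGGUAG, which hsa-miR-98-5p also carries. Counting from 1 at the 5′ end, with the base of let-7a first, let-7c differed from let-7a by A19G, let-7e by U9G and let-7f by G12A. let-7b differed by A17G and A19G, let-7d by U1A and U16C, and let-7g by G12U and U18C. let-7i was the farthest from let-7a, with G12U, A17G, U18C and A19U. How far a probe for 1 member also bound the others was not tested.

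The 8 members are encoded at 11 loci (GRCh38.p14 coordinates of the mature form; the scanner files hold no positions). let-7i has 1 locus of its own, at chr12:62603691-62603712 on the plus strand, inside the lncRNA gene MIRLET7IHG. let-7a-1 (chr9:94175962-94175983), let-7f-1 (chr9:94176353-94176374) and let-7d (chr9:94178841-94178862) lie together on the plus strand inside MIRLET7A1HG, with let-7d also inside LINC02603. let-7a-3 (chr22:46112752-46112773) and let-7b (chr22:46113691-46113712) lie on the plus strand inside MIRLET7BHG and the annotated gene LOC124905135. let-7c (chr21:16539838-16539859, plus strand) lies inside MIR99AHG, and let-7a-2 (chr11:122146568-122146589, minus strand) inside MIR100HG. let-7e (chr19:51692793-51692814, plus strand) lies within SPACA6 and SPACA6-AS1. let-7g (chr3:52268336-52268357, minus strand) lies within WDR82, and let-7f-2 (chrX:53557246-53557267, minus strand) within HUWE1 beside miR-98 (chrX:53556299-53556320). Whether each host overlap is exonic or intronic was not analysed here.

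Each member had 2 probes printed as 8 spots each, so 16 spots per array. Between 118 and 135 miRNAs were detected per array, no miRNA spot was saturated, and 8.71% to 11.1% of spots were well above background. Signals are in arbitrary units after each array was scaled to its 75th percentile over the 116 miRNAs detected on all arrays. Of the human miRNAs, 57 were tested, namely those detected on 1 or more arrays whose unscaled signal reached 50 on 1 or more, and all 8 let-7 members were among them. Signals of different probes do not rank molecules, and a lower signal cannot tell less of a miRNA per cell from fewer cells that carry it. Of 8 epithelial and intestinal miRNAs, 5 were detected on all arrays (miR-200a, miR-200b, miR-200c, miR-141 and miR-429), with summed scaled signals of 669 to 730 in non-MG and 631 to 651 in MG cells, and miR-192, miR-194 and miR-215 on none. Within this list miR-141 was lower in MG cells, at 116 and 121 against 105 and 77.6 (log2 change -0.39, SE 0.15, limma adjusted p = 0.0411). Both MG arrays were also the lower for miR-200a and miR-429, which lay below the signal minimum, and the groups overlapped for miR-200b and miR-200c. Of 13 miRNAs typical of blood, endothelium, muscle, fibroblasts, liver or neurons, 11 were not detected on any array, and miR-126 and miR-145 gave the list a summed signal of 15.3 to 15.9 in non-MG and 8.78 to 14.6 in MG cells. Whether these levels had a part in the let-7 results was not tested.

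One array stood apart before any comparison. On non-MG replicate 2 the spots in columns up to 30 of the array were dim, with a median of 0.614 times that of the spots in columns 31 to 82 over probes with a median spot signal above 50, each spot taken relative to its own probe. The same ratio was 0.981 on non-MG replicate 1, 0.988 on MG replicate 1 and 0.904 on MG replicate 2. For the let-7 spots it was 0.772 on non-MG replicate 2 and 0.903 to 0.929 on the other arrays. Values are therefore also given with the spots right of column 30 only, on all arrays, a choice made after seeing the data. It kept at most 8 to 11 of the 16 spots of each member, and fewer where spots flagged as outliers were left out. On MG replicate 2 no spot remained for the dimmer of the 2 let-7f probes. Both non-MG arrays were in row 1 and both MG arrays in row 2 of the 1 slide, so cell group and slide row cannot be told apart.

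The first question was whether the let-7 family as a whole differed between MG and non-MG cells. let-7a and let-7f gave most of the family signal in both cell groups, and the summed signal was close to level, while the share of let-7i in it was higher in MG cells by 2.10 percentage points. Summed over the members, the scaled signal was 3732 and 3799 in non-MG cells and 3784 and 3658 in MG cells. The groups overlapped, and the MG mean of 3721 ± 89.0 (SD, n = 2) was 0.988 times the non-MG mean of 3766 ± 47.4 (exact permutation test, two-sided, p = 0.667). With 2 arrays a group this exact permutation test cannot go below p = 0.333. The direction of this small difference turned with the scaling, to 1.05 times when the let-7 members were left out of the percentile and to 1.02 times with median scaling or quantile normalization. With the spots right of column 30 it was 1.00 times, but the sum on MG replicate 2 lacked the dimmer let-7f probe, which the other arrays included.

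As a share of all detected human signal, let-7 held 18.8% and 18.7% in non-MG cells and 18.5% and 19.5% in MG cells. That total counts every human entry detected, among them miR-923_v12.0 and miR-720_v18.0, whose names carry a version number. On non-MG replicate 1 these read 3314 and 1638 unscaled, of 20933 in all. miR-1274b, another such entry among the miRNAs tested, was excluded by the paper as a dead entry of miRBase. let-7a and let-7f together gave 62.3% to 65.7% of the let-7 signal on every array. The share of let-7a was 37.9% and 34.5% in non-MG cells and 36.7% and 36.5% in MG cells, so the MG values lay between the non-MG ones. The share of let-7f was 27.8% and 28.1% against 26.1% and 25.8%, lower on both MG arrays. The share of let-7i was 5.60% and 6.62% against 8.44% and 7.97%, higher on both MG arrays. These 2 shifts were of nearly equal size and opposite direction, and all shares are of array signal, not of molecules.

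**Figure D1:**
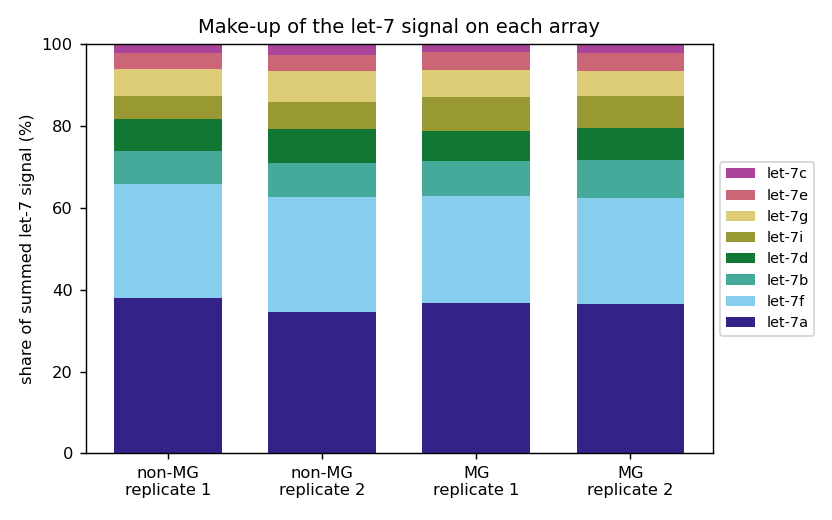
Stacked bars of the share of the summed let-7 signal (%, y axis) held by each member on the 4 arrays (x axis). let-7a and let-7f fill 62.3% to 65.7% of each bar, and the let-7i part is 5.60% and 6.62% for non-MG and 8.44% and 7.97% for MG cells.

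In order of signal, let-7a came first, followed by let-7f and then let-7b, in both groups, and let-7e and let-7c came last. Between them non-MG cells had let-7d, let-7g and then let-7i, and MG cells had let-7i, let-7d and then let-7g. The arrays of let-7b and let-7d overlapped in non-MG cells. No other neighbours in either order overlapped.

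The main comparison asked which members differed between MG and non-MG cells. let-7i was higher in MG cells, and it was the 1 of 8 members that passed the test. let-7b and let-7e also had their higher signals on the MG arrays, and let-7c, let-7d, let-7f and let-7g their lower ones, none of them past the test. let-7a was level.

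For let-7i the scaled signal was 209 and 251 in non-MG cells and 319 and 292 in MG cells. The groups did not overlap, both MG arrays being the higher, and MG replicate 2 was closest to non-MG replicate 2. The mean was 305 ± 19.6 in MG cells and 230 ± 29.9 in non-MG cells (SD, n = 2), which is 1.33-fold, with a log2 change of 0.41 (SE 0.15, 95% interval 0.11 to 0.71). In limma the adjusted p was 0.0313 over the 57 human miRNAs tested. limma gave all 57 miRNAs 1 pooled spread, 0.15 on the log2 scale, which was close to the spread of let-7i itself. The call rested on all 4 arrays: the limma adjusted p was 0.225 without non-MG replicate 1, 0.0917 without non-MG replicate 2, 0.134 without MG replicate 1 and 0.0835 without MG replicate 2, with log2 changes of 0.28, 0.53, 0.35 and 0.45. The call also ended, at a log2 change of 0.41, with no normalization between arrays (limma adjusted p = 0.0692), a signal minimum of 20 (0.0547) or none (0.357), no filter (1) and an unpaired test of each miRNA alone, as the figure legends name it (0.304), and, at a log2 change of 0.19, with scaling by the files' totals (0.439).

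Spots right of column 30 brought the non-MG arrays of let-7i together. Their scaled values, on the scale of mean spot signal, were 437 and 428 in non-MG cells and 659 and 587 in MG cells. The non-MG arrays then differed little, and both MG arrays were well above them. On these spots, at most 9 of 16 on an array, the difference was 1.44-fold, with a log2 change of 0.52 (SE 0.10) and a limma adjusted p of 0.00631.

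let-7e, encoded beside miR-99b and miR-125a, had scaled signals of 141 and 150 in non-MG cells and 163 and 168 in MG cells. The groups did not overlap, and the log2 change was 0.18 (SE 0.15, limma adjusted p = 0.406). For let-7b, the neighbour of let-7a-3, they were 303 and 318 against 329 and 338, a log2 change of 0.10 (SE 0.15, limma adjusted p = 0.703). Its groups did not overlap either. With the spots right of column 30 the log2 changes were 0.27 for let-7e (limma adjusted p = 0.0817) and 0.18 for let-7b (limma adjusted p = 0.198), and neither passed. Scaling by the per-miRNA totals of the scanner files turned both, to -0.04 for let-7e and -0.12 for let-7b.

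let-7c, from the miR-99a locus, had the lowest signals of the family. They were 82.9 and 105 in non-MG cells and 77.2 and 77.2 in MG cells, a log2 change of -0.27 (SE 0.15, limma adjusted p = 0.191). The MG arrays were nearly identical and lay below both non-MG arrays, of which replicate 2 was the high one. With the spots right of column 30 the values were 164 and 182 against 152 and 164, so the lower non-MG array and the higher MG array nearly met.

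let-7g, within WDR82, had 254 and 282 against 247 and 217, a log2 change of -0.21 (SE 0.15, limma adjusted p = 0.316). Both MG arrays were lower, by a small margin at non-MG replicate 1. With the spots right of column 30 the groups of let-7g overlapped, at 525 and 499 in non-MG cells and 501 and 426 in MG cells.

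let-7f and let-7d share the locus with let-7a-1. For let-7f the scaled signals were 1039 and 1068 against 987 and 943, a log2 change of -0.13 (SE 0.15, limma adjusted p = 0.623). The MG arrays were lower, and the replicates of let-7f lay closer together than those of most members, with a spread of its own of 0.039 on the log2 scale against the pooled 0.15. For let-7d they were 290 and 315 against 275 and 287, a log2 change of -0.11 (SE 0.15, limma adjusted p = 0.700). The gap between the let-7d groups was small and closed with the spots right of column 30, at 581 and 564 against 551 and 575. let-7f read 2080 and 2007 against 1965 and 1580 there, a log2 change of -0.21 (SE 0.12, limma adjusted p = 0.229). The 1580 of MG replicate 2 held the brighter let-7f probe only, since no spot of the dimmer one remained there. The other values held both probes, so the size of this change cannot be read.

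let-7a, with 3 loci, had 1414 and 1309 in non-MG cells and 1388 and 1336 in MG cells. Both MG values lay between the non-MG ones. The log2 change was 0.00 (SE 0.15, 95% interval -0.30 to 0.30, limma adjusted p = 0.993), so differences of up to 1.23-fold in either direction remained within the interval. Its sign turned under 5 of 25 alternatives.

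**Figure D2:**
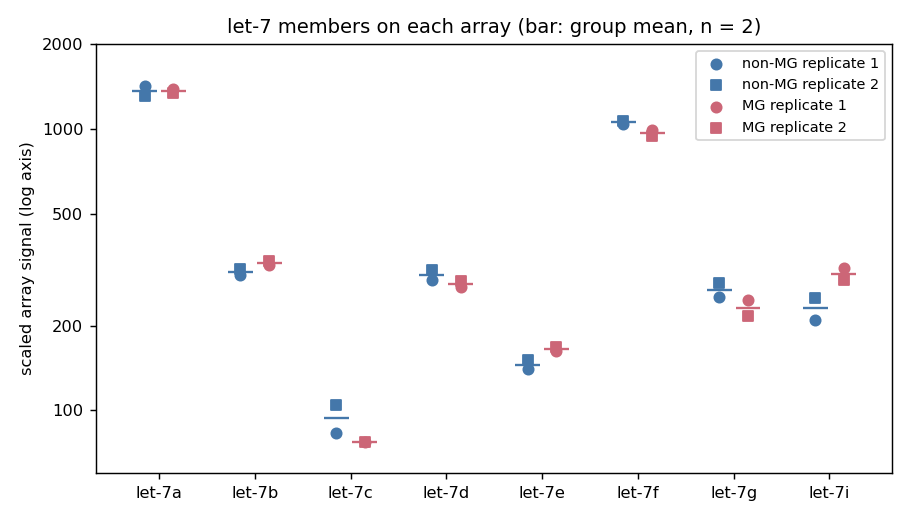
Scaled array signal (y axis, log) of the 8 members (x axis) on the 2 non-MG arrays (blue) and 2 MG arrays (red), with circles for replicate 1, squares for replicate 2 and bars for group means. let-7i lies at 209 and 251 in non-MG cells and at 319 and 292 in MG cells, and let-7a is level near 1362 in both groups.

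Counted together, 1 of 8 members (12.5%) passed limma, against 24.6% of the 57 human miRNAs tested, of which 6 (10.5%) were higher and 8 (14.0%) lower in MG cells. No member differed by 1.5-fold or more, against 7.02% of the human miRNAs tested (5.26% higher and 1.75% lower). The arrays did not overlap for 7 members, 3 higher and 4 lower in MG cells, against 61.4% of the human miRNAs tested (21.1% higher and 40.4% lower). The median log2 change was -0.05 over the members and -0.08 over all 57, and the median size of the change was 0.16 and 0.21. Counted from the highest log2 change of the 57, let-7i was number 6 and let-7c number 44.

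**Figure D3:**
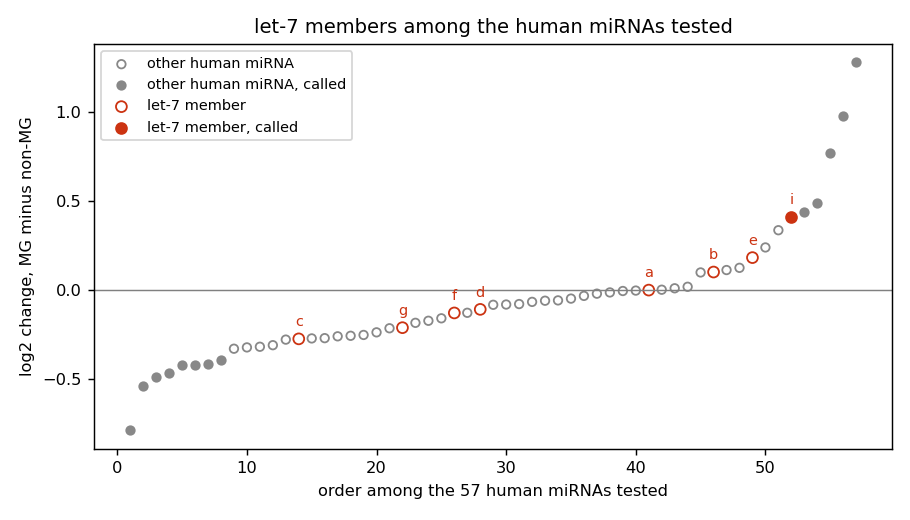
Log2 change, MG minus non-MG (y axis), of the 57 human miRNAs tested in rising order (x axis), with let-7 members in red and filled points for those with a limma adjusted p under 0.05. let-7i, at 0.41, is the filled let-7 point, and the other members run from -0.27 (let-7c) to 0.18 (let-7e).

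The 2 probes of a member give a view of the measurement that the sum hides. For let-7i both probes were higher on both MG arrays. Its brighter probe read 114 and 139 in non-MG cells and 182 and 171 in MG cells, which is 1.40-fold. Its dimmer probe read 95 and 113 against 137 and 121, which is 1.24-fold. The probes of let-7i thus moved the same way and did not overlap between groups. For let-7e the brighter probe read 80.0 and 85.0 against 101 and 101 (1.22-fold), and the dimmer one 60.6 and 65.4 against 61.7 and 67.2 (1.02-fold, overlapping). The probes of let-7e differed in the size of the change, and those of let-7a in its direction.

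The dimmer probes of let-7a and let-7f had 5 of their 8 spots in columns up to 30. So did the dimmer probes of let-7b and let-7g and the brighter probes of let-7d and let-7e. Those differed less between the non-MG replicates, by 1.17-fold (let-7b), 1.20-fold (let-7g), 1.07-fold (let-7d) and 1.06-fold (let-7e). The dimmer probe of let-7a read 530 and 304 in non-MG cells, a 1.75-fold gap between replicates, and 479 and 421 in MG cells. The brighter probe of let-7a, with 1 spot there, read 884 and 1005 against 909 and 916. On non-MG replicate 2 the unscaled spot signals of the dimmer probe averaged 309 on the left and 932 on the right, against 983 and 1017 on non-MG replicate 1, with a coefficient of variation of 67.2% over its spots.

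The dimmer probe of let-7f showed the same layout. It read 260 and 156 in non-MG cells, 1.67-fold apart, and 186 and 146 in MG cells, and its spots on non-MG replicate 2 averaged 123 on the left and 536 on the right. Over 56 miRNAs with at least 2 probes, the ratio of the 2 brightest probes moved by a median of 1.20-fold between the non-MG replicates. It moved by 1.99-fold for let-7a and 1.96-fold for let-7f, ranks 3 and 4 among the 56, and by 1.03-fold for let-7i. For let-7c the dimmer probe gave only 7.84 to 12.7 on any array, so the let-7c signal was 86.1% to 89.8% that of 1 probe.

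**Figure D4:**
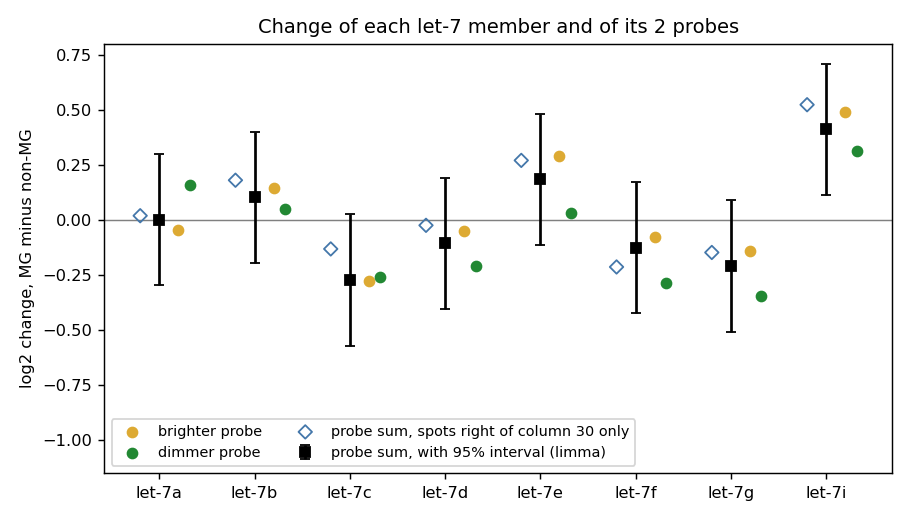
Log2 change, MG minus non-MG (y axis), of each member (x axis): black squares are the probe sum with its 95% limma interval, yellow and green points the brighter and dimmer probe, and open diamonds the sum over spots right of column 30. let-7i is above 0 on every measure (0.41, 0.49, 0.31 and 0.52), and the probes of let-7a fall on opposite sides of 0 (-0.05 and 0.16). The let-7f diamond lacks the dimmer probe on MG replicate 2.

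Ratios within an array need no scaling between arrays. let-7i was also higher in MG cells relative to every other member, with a ratio that was higher on both MG arrays than on both non-MG arrays for 7 of 7 members. Its ratio to let-7a was 0.148 and 0.192 in non-MG cells and 0.230 and 0.218 in MG cells, which is 1.33-fold. Its ratio to let-7g, which shares G12U and U18C with it, was 0.824 and 0.890 against 1.29 and 1.34, which is 1.54-fold. The smallest gap was against let-7e, at 1.49 and 1.67 in non-MG cells and 1.96 and 1.74 in MG cells (1.17-fold), and the largest against let-7c (1.61-fold). Since all 7 ratios share the let-7i signal, they are not 7 separate measurements, and no test was run on them. Of the ratios of the 49 other miRNAs tested to these 7 members, 25.4% were higher on both MG arrays, and for 6 of the 49 all 7 ratios were. With the spots right of column 30 all 7 let-7i ratios were again higher on both MG arrays, by 1.19-fold to 1.67-fold. The 1.67-fold was to let-7f, whose value on MG replicate 2 lacked its dimmer probe, and the next highest was 1.59-fold to let-7g. Over all 28 pairs of members, 21 ratios did not overlap between groups and 2 changed by 1.5-fold or more, those of let-7i with let-7c and with let-7g. Over all 1596 pairs of the miRNAs tested, 61.5% of ratios did not overlap and 18.7% changed by 1.5-fold or more.

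**Figure D5:**
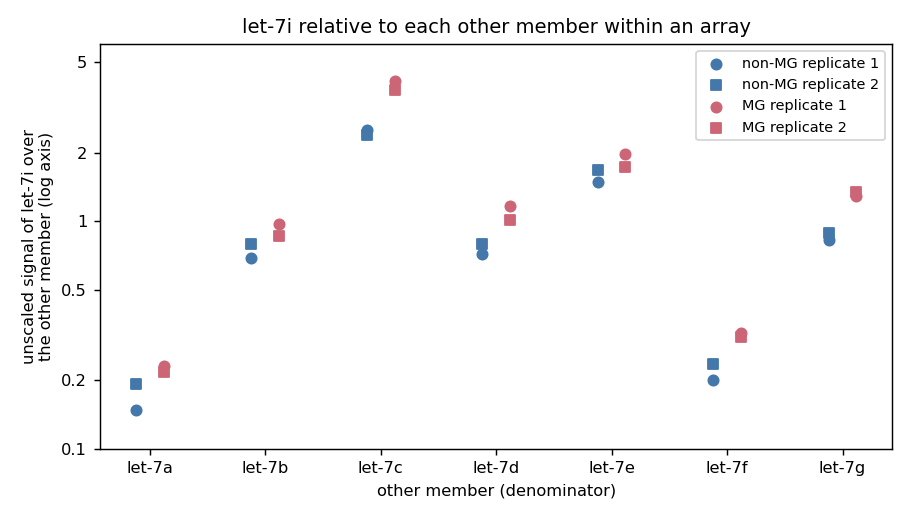
Unscaled signal of let-7i divided by that of each other member (y axis, log) on the 2 non-MG arrays (blue) and the 2 MG arrays (red). All 7 ratios (x axis) are higher on both MG arrays, by 1.17-fold (let-7e) to 1.61-fold (let-7c).

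The difference between 2 members in their changes can be set beside the number of bases by which they differ. The difference in log2 change had a median of 0.23 over the 4 pairs that differ by 1 base, 0.18 over the 8 pairs that differ by 2, 0.20 over the 8 pairs that differ by 3 and 0.36 over the 6 pairs that differ by 4. It was 0.23 for the 1 pair that differs by 5 and 0.52 for the 1 pair that differs by 6, and both pairs hold let-7i. Among the pairs that differ by 4, those with let-7i stood at 0.41, 0.54 and 0.69 and those without it at 0.10, 0.21 and 0.31. let-7g and let-7i, which differ by 2, stood at 0.62. The higher values at 4 or more bases are thus those of pairs with let-7i. The pairs share members and are given as a description only.

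The next question was what the relatives of let-7 did, from a list of seed relatives, cluster partners and passenger strands. hsa-miR-98-5p, which has the let-7 seed and sits beside let-7f-2, was detected on all arrays but stayed below the signal minimum, at 30.3 and 40.8 in non-MG cells and 33.4 and 24.6 in MG cells, with overlapping groups. hsa-miR-202-3p, whose seed differs from that of let-7 in its last base, was not detected on any array.

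The 5 partners that share a locus with a let-7 gene were detected on all arrays. Only 2 of them passed the signal minimum and were tested. Of these 2 neither was called, against 24.6% of the 57 human miRNAs tested. miR-100, encoded with let-7a-2, read 700 and 684 in non-MG cells and 756 and 728 in MG cells (log2 change 0.10, SE 0.15, limma adjusted p = 0.703). miR-125b, which has a copy at the let-7a-2 locus and another at the let-7c locus, read 485 and 545 against 457 and 485 (log2 change -0.13, SE 0.15, limma adjusted p = 0.623). Neither passed the test. Next to let-7e, miR-99b read 39.9 and 49.7 against 39.8 and 42.9, and miR-125a 40.0 and 42.3 against 41.1 and 45.9, overlapping in both cases.

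miR-99a, encoded with let-7c, had low signals that differed more. They were 18.1 and 14.2 in non-MG cells and 9.63 and 8.51 in MG cells, 0.563 times, with both MG arrays below both non-MG arrays. It lay below the signal minimum, and with no minimum its limma adjusted p was 0.246. let-7c and miR-99a both read lower on both MG arrays, as did 40.4% of the 57 human miRNAs tested, and neither passed the test. miR-125b, which has a copy at the same locus, overlapped between groups.

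None of the 9 let-7 passenger strands on the array was detected on any array, nor any of the 6 passenger strands of the related miRNAs. The sums of all probes of the 9 let-7 passenger strands, unscaled, ran from -6.53 to 1.38, which is around the background. All detected let-7 signal was that of the 5p forms.

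By the mean log2 deviation of the 8 members on each array, the family pattern was nearly flat, at -0.06 and 0.06 in non-MG cells and 0.02 and -0.02 in MG cells. The 3 miRNAs closest to it were miR-331-3p (root mean square difference over the 4 arrays 0.05), miR-107 (0.05) and miR-320b (0.05), against a median of 0.16 over the 49 other human miRNAs tested. miR-331-3p read 60.6 and 62.8 in non-MG cells and 58.6 and 60.8 in MG cells, and miR-107 read 208 and 213 against 206 and 194. These were miRNAs that barely changed. The flat family mean, in contrast, joined members with changes in opposite directions, such as let-7i (log2 change 0.41) and let-7c (-0.27). Of the members themselves, let-7i was the farthest from the family pattern (0.22) and let-7b the closest (0.06). Every member thus lay farther from the mean than the 3 miRNAs named.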

How the data were processed

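Total RNA of 2 MG and 2 non-MG samples of HCT116 cells was measured on 1-colour human miRNA arrays. The authors scanned the arrays with Agilent Feature Extraction (10.7.1.1 in the file headers) and deposited each array's spot and probe intensity values, background-corrected and not normalized between arrays. The deposited value table held the sum of the probe intensity values above 3 times their error, which matched the scanner files for all 142 detected miRNAs within 0.05%. These sums were scaled to each array's 75th percentile over the miRNAs detected on all arrays, floored at 1 and taken to log2. Human miRNAs detected with at least 50 on at least 1 array were tested with limma 3.58.1 in R 4.3.3, MG against non-MG, two-sided, with Benjamini-Hochberg adjustment and no block. The prior degrees of freedom were infinite, so all miRNAs shared 1 spread. The 8 members, the related miRNAs and the marker lists were chosen with earlier results of these data known. The text names these and the 3 miRNAs most alike in pattern by root mean square difference. Depth does not apply to arrays, whose number limits the precision. The alternatives were other signal summaries, background corrections, normalizations, floors, filters, tests, a replicate block and leaving out each array. The code was tested on simulated data. Same-numbered arrays deviated together over 57 miRNAs (r = 0.48), but with 2 pairs and no label of a shared batch the numbers were not taken to pair the samples.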

Additional observations from a re-analysis of the deposited data

How the results depend on the processing

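Among the 25 alternatives, all probes summed, the mean spot signal, the deposited values, a floor of 10 and detection on all arrays nearly repeated the main run. Each gave the main let-7i log2 change of 0.41 again. let-7i was higher in MG cells under all 25 alternatives, with log2 changes of 0.19 to 0.58. It stayed called in 14 of them, which include these near repeats of the main run. Its call, and with it the only member called (0 of 8), was lost with scaling by the files' totals (limma adjusted p = 0.439), no normalization (0.0692), a minimum of 20 (0.0547), no minimum (0.357), no filter (1), the unpaired test of the figure legends (0.304), the replicate block (0.0894), and without any 1 array (0 of 8 each time, lowest and highest 0). Over all human miRNAs tested, 14 were called; 0 with the totals in limma (28 at an unadjusted p under 0.05), 5 with the brightest probe only, 6 with no normalization, 9 with a minimum of 100, 1 with no minimum, 1 with no filter, 0 by the unpaired test of the legends (7 unadjusted), 8 with the replicate block, and 3 to 11 without 1 array. More miRNAs entered the test at lower minimums. The summed let-7 fold of 0.988 became 0.846 with totals, 1.06 with the brightest probe, 1.07 with the median spot, 1.02 with quantile normalization, 1.02 with median scaling, 1.05 without let-7 in the percentile, and 0.971 to 0.984 without 1 array. The share of let-7a, 36.4% over the arrays, was 33.3% with normexp. Direction turned for let-7a (-0.22), let-7b (-0.12) and let-7e (-0.0406) with totals, for let-7d (0.0414) and let-7f (0.0150) with the brightest probe, and for let-7a with no normalization (-0.000527) and without 1 array (-0.0723 to 0.0570; below 0 without non-MG replicate 2, MG replicate 1 or MG replicate 2). let-7 totals equalled the probe sums, so with totals it was the scaling that moved them, each by -0.22. With totals the median log2 change was -0.30 over the same 57 miRNAs and -0.29 over the 89 tested there. The replicate block changed no other let-7 call. The brightest-probe, median-spot and right-hand-spot settings were chosen after seeing the data. The 75th percentile over all miRNAs was not run, since it falls on an undetected miRNA. With 1 array left in a group, that array is assumed to vary like the others.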
